A study of Mus musculus with 4 samples.

Results

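Nucleolar ribosome biogenesis genes are described here in Ter119+ cells of mouse bone marrow, the erythroid fraction, either with floxed alleles of Med16 (Med16 fl/fl) or lacking it by knockout (Med16 KO). The genes are 36 nucleolar factors, proteins of small nucleolar ribonucleoproteins (snoRNPs) and RNA polymerase I genes, chosen by symbol from 56691 genes listed in the count tables, and all 36 were found and had enough counts to be tested. The titles of the KO libraries also carry the letters DK, which the labels do not explain, so the genotype label alone defines the groups here and a further alteration in these libraries cannot be told apart from the loss of Med16. Poly(A) RNA was sequenced in 2 libraries per genotype, all with a time label of 3 weeks. The labels give no age, sex or strain, do not say which Cre removed the floxed alleles or what the time runs from, and do not state that libraries came from separate animals, so p values reflect only how these libraries vary, and that variation may be technical.

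Ribosomes are assembled in the nucleolus. RNA polymerase I transcribes the long precursor of ribosomal RNA, snoRNPs guide its chemical modification and cleavage, and separate sets of assembly factors build the small and the large subunit around it. Erythroid precursors rely on ribosome production for the synthesis of globin, and both ribosome biogenesis genes and cell division are known to decline as these cells mature. Mediator, of which the Med16 protein is a part, connects transcription factors with RNA polymerase II, and the comparison asks how its loss changes the erythroid transcriptome.

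Counts assigned to genes ranged from 6749196 to 7216333 per library. Genes with any count numbered 18947 and 19016 in fl/fl, against 16892 and 16479 in KO. Unaligned reads made up 1.05% and 0.826% of reads in fl/fl, against 2.69% and 3.27% in KO. A technical difference between these libraries cannot be told apart from the genotype. Med16 itself was lower in both KO libraries, with 16 and 30 counts against 164 and 127 in fl/fl (log2 fold change -2.64 with SE 0.34, adjusted p = 4.6e-05 by the quasi-likelihood test of edgeR). Levels are given below in CPM, counts scaled to library size with a correction by the trimmed mean of M values (TMM), per library or as mean ± SD over n = 2 libraries. A gene is said to have risen or fallen where the Benjamini-Hochberg adjusted p was under 0.05. Erythroid markers were abundant in all libraries, and 11 of 14 were lower and 2 higher in KO, against 9.89% and 8.50% of all genes tested. The 2 most abundant went in opposite directions. Hbb-bs fell from 72920 ± 2140 CPM in fl/fl to 64770 ± 3410 CPM in KO (log2 fold change -0.17, SE 0.03). Hba-a1 rose from 65970 ± 2390 to 76290 ± 6240 CPM (0.21, SE 0.04). Markers of other marrow cells moved too, and their values stand beside the nucleolar genes further on.

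More of the nucleolar genes rose than fell in Med16 KO, and 4 of the 7 rises were among factors of the large subunit. Of 36 genes, 7 rose (19.4%) and 2 fell (5.56%), while over all 13052 genes tested 8.50% were called higher and 9.89% lower. The 7 that rose were Wdr74, Rrs1, Rrp12, Nop2, Bop1, Nhp2 and Mybbp1a, by log2 fold changes of 0.61 to 0.99, and the 2 that fell were Dkc1 and Ubtf. Both KO libraries lay above both fl/fl libraries for 19 genes (52.8%, against 29.4% of all genes tested) and below them for 5 (13.9%, against 28.2%), and the genotypes overlapped for 12. The median log2 fold change was 0.22, against 0.02 over all genes tested, and 24 of 36 values were above 0, against 6721 of 13052. Without KO library 2 the median was 0.118, with 22 values above 0. Together the 36 genes took 0.1881% and 0.18% of the counts in fl/fl libraries 1 and 2, against 0.2028% and 0.2003% for KO libraries 1 and 2.

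These counts depended on single libraries and on the assumed spread, as did the counts over all genes. Without fl/fl library 1 or fl/fl library 2, 2 of the 36 genes were called higher (5.56%, against 3.64% and 3.26% of all genes tested in those fits). Without KO library 1 there were 12 (33.3%, against 13.4%) and without KO library 2 there were 8 (22.2%, against 12.4%). Such a fit estimates the spread only within the genotype that keeps 2 libraries, and the distance between the KO libraries was the larger one (chi-square per degree of freedom over genes 6.63, against 2.73 for fl/fl). When the biological coefficient of variation was set to 0.2 instead of the estimated 0.125, 1 of the 36 genes was higher, Wdr74 (2.78%, against 2.54% of all genes tested), and 0 lower (against 2.21%; edgeR, with 7 and 1 at an unadjusted p under 0.05).

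**Figure D1:**
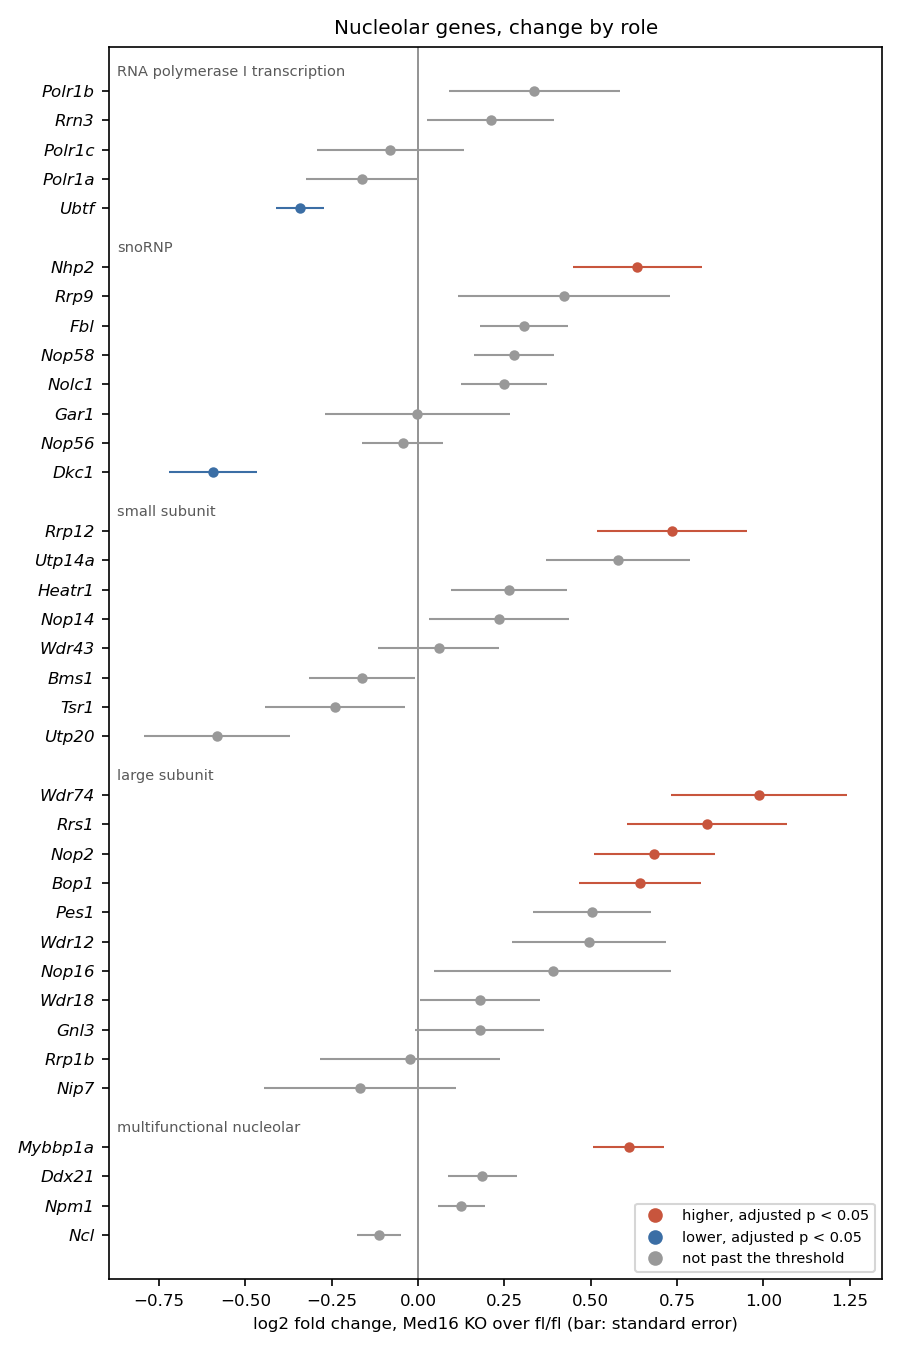
Log2 fold change of each nucleolar gene, Med16 KO over fl/fl (horizontal axis), grouped by role, with its standard error as the bar; red and blue points passed an adjusted p of 0.05. Of the 7 red points, 4 are among the 11 large subunit genes, and both blue points (Ubtf and Dkc1) lie in the polymerase I and snoRNP groups.

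Among the 11 factors of the large subunit, 4 rose (36.4%, against 8.50% of all genes tested) and 0 fell (against 9.89%) in edgeR, as in DESeq2, and 0 were lower even at an unadjusted p under 0.05. Their median log2 fold change was 0.50, and 9 of the 11 values were above 0. Of 52 other large-subunit genes, from the wider pathway list described further on, 2 rose (3.85%) and 0 fell in edgeR and in DESeq2 (8 and 0 at an unadjusted p under 0.05), with a median of 0.12. Among the 11 genes, a further 2 passed an unadjusted p of 0.05 without passing the adjusted one, namely Pes1 and Wdr12. Summed over the 11 genes, the level was 217 and 206.4 CPM in fl/fl against 275.2 and 303.3 CPM in KO, so the genotypes did not overlap.

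Wdr74 (ENSMUSG00000042729.12), a WD-repeat protein of early large-subunit particles, showed the largest rise of the 36. It was at 12.0 and 8.85 CPM in fl/fl and at 18.7 and 22.8 CPM in KO. Every KO library exceeded every fl/fl library, although the fl/fl libraries differed from each other by 0.44 on the log2 scale. The fold change was 1.98 (log2 0.99, SE 0.25, edgeR adjusted p = 0.0127), and the call ended without fl/fl library 2, at 0.77.

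Rrs1 (ENSMUSG00000061024.9) helps to bring the 5S ribonucleoprotein into the large subunit. Its level was 13.7 and 14.9 CPM in fl/fl and 20.9 and 30.3 CPM in KO. The fl/fl libraries lay close together and below both KO libraries, which were themselves 0.53 apart on the log2 scale. Its log2 fold change was 0.84 (SE 0.23, edgeR adjusted p = 0.0198), and the call ended without fl/fl library 1 or 2, at 0.76 and 0.89, or KO library 2, at 0.53.

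Nop2 (ENSMUSG00000038279.11) encodes the methyltransferase that places a base methylation on the large ribosomal RNA. Levels of 23.2 and 21.6 CPM in fl/fl and 37.8 and 34.3 CPM in KO left a wide gap between the genotypes relative to the spread within them. The log2 fold change was 0.68 (SE 0.17, edgeR adjusted p = 0.012), and without fl/fl library 1 or 2 the call ended at 0.72 and 0.62.

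Bop1, Pes1 and Wdr12 encode the 3 subunits of the PeBoW complex, which is needed for maturation of the large-subunit RNA. Bop1 (ENSMUSG00000022557.12) rose from 23.4 and 31.5 CPM in fl/fl to 44.5 and 41.0 CPM in KO (log2 fold change 0.64, SE 0.18, edgeR adjusted p = 0.0185), a call that ended without fl/fl library 1, at 0.43. Pes1 was at 33.0 and 25.4 CPM in fl/fl and 41.0 and 41.8 CPM in KO, which gave 0.50 on the log2 scale (SE 0.17) and narrowly missed the threshold at an adjusted p of 0.0526 in edgeR. Wdr12 was at 14.2 and 17.7 CPM in fl/fl and 20.4 and 24.6 CPM in KO, or 0.50 on the log2 scale (SE 0.22), without a call. All 3 subunits were higher in both KO libraries than in either fl/fl library, as were 29.4% of all genes tested. Of the 3, 1 was past the threshold, against 8.50% called higher over all genes tested.

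The other large-subunit factors were not called. Nop16 had 8.21 and 8.99 CPM in fl/fl but 7.58 and 15.0 CPM in KO, so its log2 fold change of 0.39 (SE 0.34) turned to -0.19 without KO library 2. Gnl3, which encodes the GTPase nucleostemin, was at 28.7 and 27.3 CPM in fl/fl and 27.0 and 36.5 CPM in KO, and the genotypes overlapped. Wdr18, a subunit of the complex that releases late large-subunit particles, had a log2 fold change of 0.18 (SE 0.17). It lies near Med16, with 5 genes between them in the RefSeq gene order of GRCm38.p6. Rrp1b and Nip7 had log2 fold changes of -0.02 and -0.17 with overlapping genotypes.

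**Figure D2:**
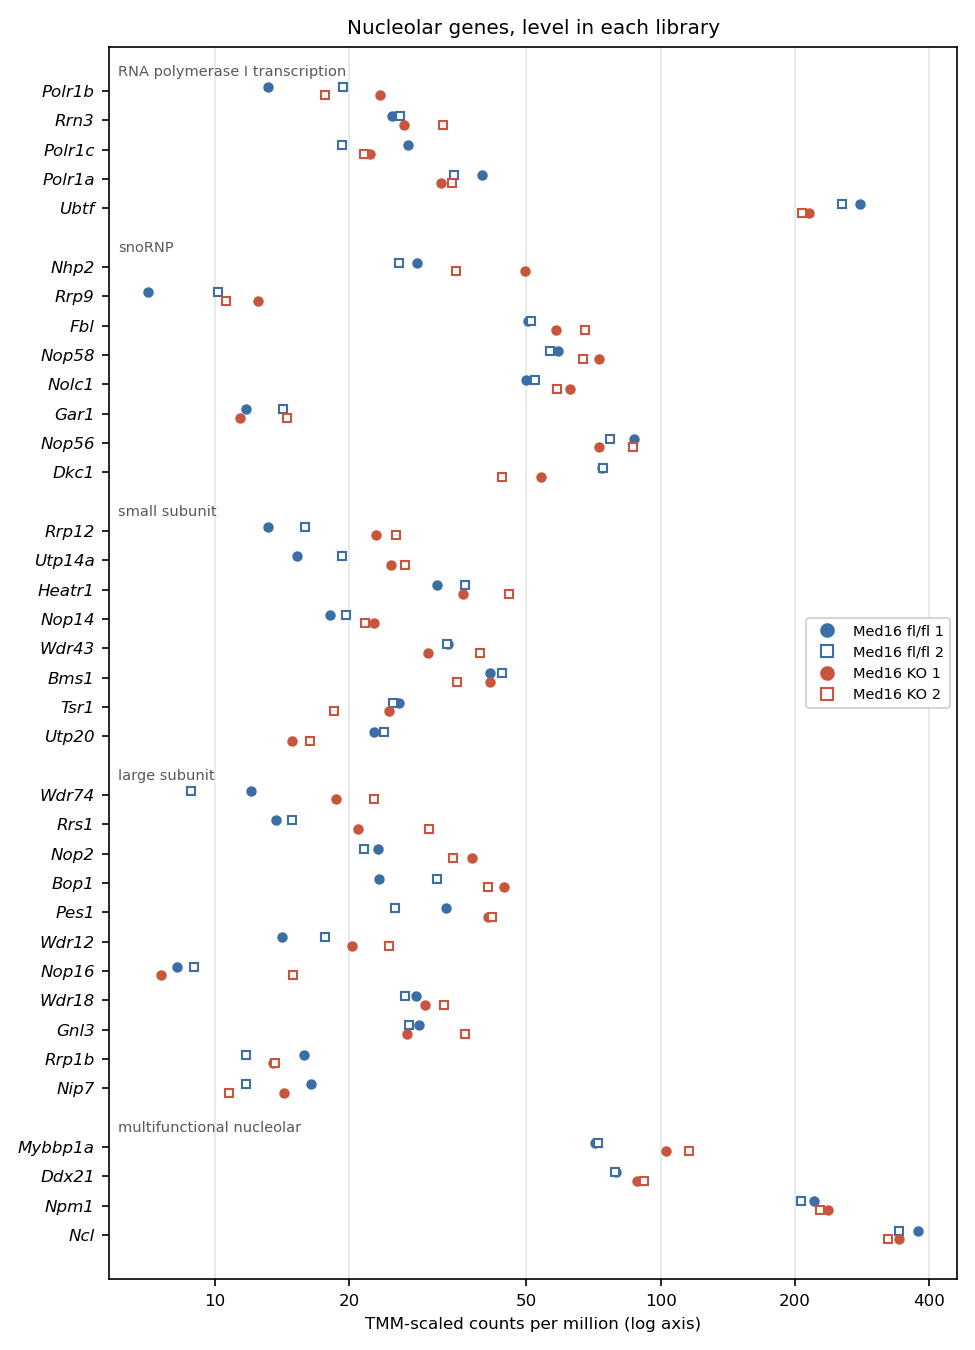
TMM-scaled CPM of each nucleolar gene in each library (log axis), filled circles for replicate 1 and open squares for replicate 2 of Med16 fl/fl (blue) and Med16 KO (red). For Nop2, Rrs1, Wdr74 and Mybbp1a both red symbols lie right of both blue ones, for Ubtf and Dkc1 both lie left, and for 12 genes such as Nop56 and Gar1 the genotypes overlap.

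The RNA polymerase I genes held 1 call, and it was a fall. Of 5 genes, 0 rose in edgeR or DESeq2, or at an unadjusted p under 0.05, and 1 fell. The shares called in edgeR were 0% higher and 20% lower, against 8.50% and 9.89% of all genes tested. Ubtf (ENSMUSG00000020923.18) encodes UBF, the factor that occupies active ribosomal DNA and opens it for polymerase I. It was at 280.3 and 254.8 CPM in fl/fl and at 215.0 and 207.4 CPM in KO, a log2 fold change of -0.34 (SE 0.07, edgeR adjusted p = 0.00244). Both KO libraries lay below both fl/fl libraries. Without fl/fl library 1 the call ended, with a log2 fold change of -0.28.

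The polymerase subunits themselves showed no call. Polr1a, the largest subunit, was at 39.8 and 34.4 CPM in fl/fl and 32.2 and 34.1 CPM in KO (log2 fold change -0.16, SE 0.16). Polr1b, the second largest subunit, spread from 13.2 to 19.4 CPM in fl/fl and from 17.7 to 23.5 CPM in KO, and its log2 fold change of 0.34 (SE 0.25) lay within that overlap. Polr1c, a subunit that polymerase III also uses, had a log2 fold change of -0.08 (SE 0.21). Rrn3, which encodes the initiation factor TIF-IA that links polymerase I to its promoter, was at 24.9 and 26.1 CPM in fl/fl and 26.5 and 32.5 CPM in KO (0.21, SE 0.18).

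Of the 8 snoRNP genes, 1 rose and 1 fell (12.5% each, against 8.50% and 9.89% of all genes tested). Both encode proteins of one complex. Dkc1, Nhp2 and Gar1 are core proteins of H/ACA snoRNPs, which convert uridine to pseudouridine. Dkc1 (ENSMUSG00000031403.15), the pseudouridine synthase of the complex and a component of telomerase, fell from 74.0 and 74.2 CPM in fl/fl to 54.1 and 44.1 CPM in KO (log2 fold change -0.59, SE 0.13, edgeR adjusted p = 0.00392). It was the lowest log2 fold change of the 36. Nhp2 (ENSMUSG00000001056.4) went the other way, from 28.5 and 26.0 CPM in fl/fl to 49.7 and 34.7 CPM in KO (0.63, SE 0.19, edgeR adjusted p = 0.0272). Both calls rest on genotypes that did not overlap, but the KO libraries of Nhp2 were 0.52 apart on the log2 scale, and the call ended without KO library 1, at 0.34, and without either fl/fl library, at 0.69 and 0.56. Gar1 was at 11.8 and 14.2 CPM in fl/fl and 11.4 and 14.6 CPM in KO, a log2 fold change of 0.00 (SE 0.27).

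The C/D snoRNP proteins, which guide methylation of ribose, were not called. Fbl, the methyltransferase fibrillarin, was at 50.4 and 51.3 CPM in fl/fl and 58.4 and 67.5 CPM in KO (log2 fold change 0.31, SE 0.13), and Nop58 was at 58.9 and 56.6 CPM in fl/fl and 72.9 and 67.1 CPM in KO (0.28, SE 0.12). For both, the genotypes did not overlap and only the unadjusted p was under 0.05. Their partner Nop56 had overlapping genotypes and a log2 fold change of -0.04 (SE 0.12). Nolc1, a chaperone of snoRNPs, stood at 0.25 (SE 0.12) and Rrp9, a protein specific to the U3 snoRNP, at 0.42 (SE 0.31), neither past the threshold.

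Among 8 factors of the small subunit, 1 rose and 0 fell in both edgeR and DESeq2, with 1 lower at an unadjusted p under 0.05. The shares called in edgeR were 12.5% higher and 0% lower, against 8.50% and 9.89% of all genes tested. Rrp12 (ENSMUSG00000035049.5), a factor in the export of both subunits, was at 13.2 and 15.95 CPM in fl/fl and 23.0 and 25.5 CPM in KO (log2 fold change 0.73, SE 0.22, edgeR adjusted p = 0.0278). The genotypes did not overlap, and the call ended without fl/fl library 1, at 0.59, and without fl/fl library 2, at 0.87. Utp14a and Utp20, 2 proteins of the small subunit processome, lay just outside the threshold in opposite directions. Utp14a was at 15.3 and 19.3 CPM in fl/fl and 24.9 and 26.8 CPM in KO (0.58, SE 0.21, edgeR adjusted p = 0.067), and 11.5% of its exon length overlaps a long noncoding gene on the other strand. Utp20 was at 22.8 and 23.9 CPM in fl/fl and 14.9 and 16.3 CPM in KO (-0.58, SE 0.21, edgeR adjusted p = 0.0688).

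The 5 remaining small-subunit genes were well short of a call. Heatr1, Nop14 and Wdr43 had log2 fold changes of 0.26, 0.23 and 0.06. Bms1, a GTPase of the processome, and its relative Tsr1, which acts late in the cytoplasm, had values of -0.16 and -0.24. Tsr1 shares 32.3% of its exon length with Srr on the opposite strand, and since the strand setting of the counting is not given, reads from that overlap cannot be assigned to one of the genes with certainty.

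Of the 4 abundant nucleolar proteins with several roles, 1 rose (25%, against 8.50% of all genes tested) and 0 fell (against 9.89%). Mybbp1a (ENSMUSG00000040463.17), a nucleolar protein that also binds transcription factors and restrains ribosomal RNA synthesis, was at 71.2 and 72.4 CPM in fl/fl and at 103.1 and 116.1 CPM in KO. The fl/fl libraries were almost equal and both KO libraries were far above them, giving a log2 fold change of 0.61 (SE 0.10, edgeR adjusted p = 0.00052), the smallest adjusted p of the 36. Neither Ncl nor Npm1 was called. Ncl, which encodes nucleolin and had the most counts of the 36, was at 378.8 and 342.1 CPM in fl/fl and 342.9 and 323.6 CPM in KO (-0.11, SE 0.06), and Npm1, which encodes nucleophosmin, was at 220.4 and 206.8 CPM in fl/fl and 237.7 and 228.0 CPM in KO (0.12, SE 0.07). As background, Npm1 has processed pseudogenes that can take reads from it in unique alignment. Ddx21, an RNA helicase, had a log2 fold change of 0.19 (SE 0.10). Per kilobase of the annotated principal transcript, Npm1 was the most abundant of the 36 in fl/fl at 131 CPM per kilobase. Ubtf followed at 57.0 and Ncl at 43.9, and Wdr12 was the least abundant at 1.59. These ranks depend on the transcript length used, which was 1.633 kb for Npm1, 4.692 kb for Ubtf and 8.202 kb for Ncl. The length used for Wdr12 was the longest of the 36. Whether the ranks hold with other transcripts of these genes was not tested.

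Not one of the 27 genes without a call had a log2 fold change beyond -0.58 to 0.58, and 6 of them had an unadjusted p under 0.05. For 11 of the 36 genes the gap between the KO libraries was wider than that between the genotypes, and for 9 the gap between the fl/fl libraries was. These counts have no value over all genes beside them, so they cannot be read as particular to the 36. The median absolute log2 difference between replicates was 0.132 in fl/fl and 0.19 in KO for the 36. Over 12884 genes tested without a count of 0 it was 0.165 and 0.255. At the threshold, Rrp12 (adjusted p = 0.0278) and Nhp2 (0.0272) lay just inside and Pes1 (0.0526) and Utp14a (0.067) just outside in edgeR's quasi-likelihood test.

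Correcting for base composition changed which of these genes were called. Transcripts of the 7 genes that rose had between 53.7% and 58.2% G and C, while the median was 50.6% over the 36 genes and 50.1% over all genes tested. With an offset for GC content, 7 genes were again called higher (19.4%, against 5.97% of all genes tested). Of them, only 3 were among the original 7 (Wdr74, Mybbp1a and Nop2, the last at an adjusted p of 0.04998 in edgeR). Nhp2, Rrp12, Bop1 and Rrs1 then stood at 0.52, 0.57, 0.41 and 0.71 on the log2 scale and lost their calls. Npm1, Nop58, Utp14a and Wdr12, with 42.4%, 43.0%, 46.8% and 40.4% G and C, were called higher in their place, at 0.29, 0.43, 0.67 and 0.70. Ubtf and Dkc1 remained lower, at -0.46 and -0.45 (5.56% of the 36, against 8.51% of all genes tested). The median of the 36 genes was 0.29 with this offset.

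**Figure D3:**
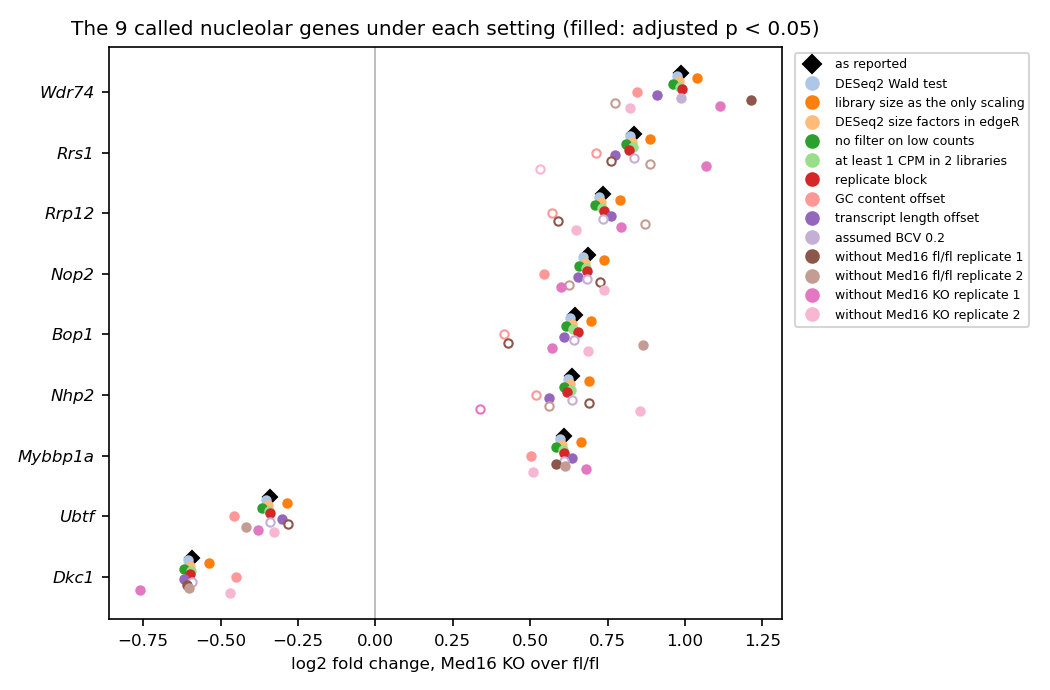
Log2 fold change (horizontal axis) of the 9 called nucleolar genes as reported (black diamond) and under each of 13 alternative settings (coloured circles); filled symbols passed an adjusted p of 0.05. Every symbol keeps its side of 0, Dkc1 and Mybbp1a lose the call only with an assumed coefficient of variation of 0.2, and Nhp2 and Rrs1 lose it under 5 settings each.

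Promoter sequences are shown for the 5 called genes with 1 listed start site, 4 that rose and Dkc1 that fell, to set side by side the letters ahead of genes that moved in opposite directions. Each is the 250 bases before the RefSeq start (build GRCm38.p6, another build than that of the counts, plus strand), and capitals mark CACGTG, the E-box letters bound by MYC family factors, and CCGGAAG or its reverse complement, letters bound by ETS family factors. The positions are chr19:8735589-8735838 for Wdr74, chr6:125131633-125131882 for Nop2, chr11:51619523-51619772 for Nhp2, chr11:72441077-72441326 for Mybbp1a and chrX:75095604-75095853 for Dkc1.
Wdr74: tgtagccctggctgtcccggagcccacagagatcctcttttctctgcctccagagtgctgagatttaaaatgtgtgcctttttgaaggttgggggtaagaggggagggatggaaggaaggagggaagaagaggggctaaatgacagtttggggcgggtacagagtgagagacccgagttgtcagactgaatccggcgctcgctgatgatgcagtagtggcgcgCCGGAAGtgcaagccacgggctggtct
Nop2: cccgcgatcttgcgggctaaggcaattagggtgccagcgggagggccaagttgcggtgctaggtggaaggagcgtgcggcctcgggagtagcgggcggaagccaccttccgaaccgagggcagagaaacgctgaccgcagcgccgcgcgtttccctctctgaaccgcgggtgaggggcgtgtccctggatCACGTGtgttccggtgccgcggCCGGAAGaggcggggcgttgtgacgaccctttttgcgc
Nhp2: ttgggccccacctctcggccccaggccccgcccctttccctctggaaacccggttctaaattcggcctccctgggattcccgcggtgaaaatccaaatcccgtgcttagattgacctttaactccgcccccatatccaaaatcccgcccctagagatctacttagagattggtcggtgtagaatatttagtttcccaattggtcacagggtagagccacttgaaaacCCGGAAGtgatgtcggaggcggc
Mybbp1a: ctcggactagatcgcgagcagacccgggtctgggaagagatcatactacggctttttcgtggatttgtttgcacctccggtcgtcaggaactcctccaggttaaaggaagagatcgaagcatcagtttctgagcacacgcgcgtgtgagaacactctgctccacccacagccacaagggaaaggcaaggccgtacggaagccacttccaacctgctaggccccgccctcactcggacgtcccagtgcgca
Dkc1: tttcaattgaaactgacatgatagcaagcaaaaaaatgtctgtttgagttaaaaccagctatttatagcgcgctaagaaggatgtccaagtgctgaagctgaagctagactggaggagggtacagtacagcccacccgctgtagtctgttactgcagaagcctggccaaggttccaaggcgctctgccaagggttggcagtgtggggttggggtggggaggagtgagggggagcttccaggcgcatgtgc

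In Wdr74, Nop2 and Nhp2 the ETS letters begin 27, 38 and 23 bases before the start, and Nop2 also holds an E-box that begins 60 bases before it. Mybbp1a, which rose, and Dkc1 hold neither in this window, and Ubtf, which fell and has 6 listed starts, holds neither in any of its windows. For Nop2, Mybbp1a and the first listed Ubtf start, bases just after that start were not found in any GENCODE M21 transcript of the gene. Their windows and distances therefore rest on the RefSeq start alone. The other called genes, Rrs1, Rrp12 and Bop1, have no entry in the table used. Of the 36 genes 31 had a promoter in the RefSeq table, and CCGGAAG on either strand was found in 9 of them (29.0%), in 35 of 110 other ribosome biogenesis genes (31.8%) and in 1513 of 9296 genes tested (16.3%). The E-box CACGTG, which reads the same on both strands, was found in 2 of 31 (6.45%), namely Nop2 and Rrn3, against 10.9% of other ribosome biogenesis genes and 10.1% of genes tested. The ETS letters were searched after these promoters had been read. The motifs do not overlap each other in the sequences shown, and a match is a description of letters and not of binding.

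In the rest of the pathway few genes were called. From a list of 133 other ribosome biogenesis genes, 132 were tested, of which 4 rose (3.03%) and 2 fell (1.52%), below the 8.50% and 9.89% over all genes tested. Their median log2 fold change was 0.11 (0.073 without KO library 2), with 87 values above 0, and 38.6% had both KO libraries above both fl/fl libraries. Their median level was 21.0 CPM, not scaled for length, against 29.6 CPM for the 36 genes, and the median SE of their log2 fold changes was 0.21 against 0.18. Whether the share called differs between both sets was not tested.

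Those that rose were the small-subunit genes Wdr46 (log2 fold change 0.78, SE 0.22) and Rrp7a (0.53, SE 0.15) and the large-subunit genes Ppan (0.70, SE 0.19) and Eif6 (0.51, SE 0.16), which encodes a factor that keeps the subunits apart. Dimt1, which encodes a methyltransferase of the small ribosomal RNA, fell from 14.9 ± 1.67 to 6.99 ± 1.35 CPM (-1.09, SE 0.30, edgeR adjusted p = 0.0169). Exosc9, an exosome subunit, fell from 206.7 ± 2.17 to 145.5 ± 13.3 CPM (-0.51, SE 0.08, edgeR adjusted p = 0.000298). Calls were 0 of 10 for other polymerase I genes and 0 of 10 for other snoRNP genes in edgeR and in DESeq2, with 1 lower and 2 higher at an unadjusted p under 0.05. With a GC content offset, 0 of the 132 were higher and 1 was lower in edgeR (16 and 5 at an unadjusted p under 0.05). Scaling by library size alone gave 12 higher. Leaving out fl/fl library 1 or 2 gave 0 higher and 1 lower (7 and 6 higher at an unadjusted p under 0.05), leaving out KO library 1 gave 14 and 8, and leaving out KO library 2 gave 13 and 4. Cytosolic ribosomal protein genes, the products that these factors assemble, were higher for 33 of 78 tested and lower for 1. Over all genes tested 8.50% were higher and 9.89% lower. Their median was 0.17, against 0.22 for the 36 genes. They summed to 27600 and 26720 CPM in fl/fl and 30070 and 30660 CPM in KO. The 36 genes summed to 1922 and 1840 CPM in fl/fl and 1979 and 1989 CPM in KO. How far level affects the number of calls was not tested.

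**Figure D4:**
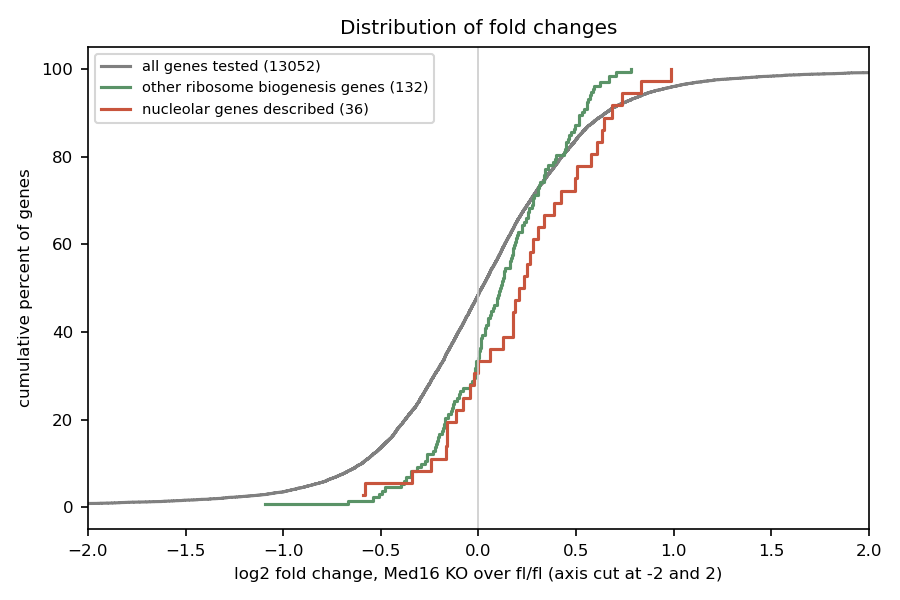
Cumulative percent of genes (vertical axis) against log2 fold change, Med16 KO over fl/fl, for all 13052 genes tested (grey), 132 other ribosome biogenesis genes (green) and the 36 nucleolar genes (red), with the axis ending at -2 and 2. The medians are 0.02, 0.11 and 0.22, and the red curve lies to the right of the grey one through most of its range.

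Markers of other marrow cells and of the cell cycle differed between the same libraries. All 8 neutrophil primary granule genes rose, their summed level going from 2108 and 2088 CPM in fl/fl to 4626 and 4758 CPM in KO; Mpo, the myeloperoxidase gene, rose by a log2 fold change of 1.29 (SE 0.03). Megakaryocyte and platelet genes rose for 9 of 10 tested, from sums of 112.0 and 98.3 CPM to 244.8 and 236.7 CPM, with Gp1bb at 0 counts in all libraries. Late neutrophil genes rose for 9 of 11, with sums of 13060 to 13210 CPM in fl/fl and 16640 to 16950 CPM in KO. Endothelial and stromal genes rose for 2 of 4 tested, with sums of 134.3 and 139.2 CPM in fl/fl and 223.9 and 276.9 CPM in KO. Both were collagen genes and made up most of these sums. Col1a1 went from 62.13 ± 2.98 to 133.8 ± 22.8 CPM and Col1a2 from 51.75 ± 4.49 to 85.51 ± 13.9 CPM. Pecam1, an endothelial gene, and Cxcl12 were not called, and their genotypes overlapped. The endothelial genes Cdh5 and Kdr had too few counts to be tested. Of the G2 and M phase genes 12 of 14 fell, with their sum going from 9248 and 9346 CPM to 5963 and 6049 CPM. S phase genes fell for 9 of 14, with sums of 5257 to 5264 CPM in fl/fl and 4357 to 4423 CPM in KO, and 13 of 14 had values below 0. Early progenitor genes summed to 1385 and 1413 CPM in fl/fl and 1136 and 1092 CPM in KO, with 2 higher and 2 lower of 11 tested. Most of these sums came from Tal1 and Lmo2, with means of 695.8 and 525.9 CPM in fl/fl and 548.3 and 357 CPM in KO. Tal1 and Lmo2 fell (-0.34, SE 0.05, and -0.56, SE 0.05), while Kit and Cd34 rose (0.68, SE 0.16, and 1.08, SE 0.32). Of the 11 values 7 were above 0, with a median of 0.38. The lower sums in KO therefore describe Tal1 and Lmo2 and not the list as a whole. Monocyte and macrophage genes had 3 higher and 3 lower of 12. Csf1r, Cd14 and Ly6c2 rose by 0.62, 0.96 and 0.54 on the log2 scale, and Vcam1, Mrc1 and Cd163 had values of -0.29, -0.55 and -0.97. B cell genes had 1 higher of 11, and T and NK cell genes 0 of 6 in edgeR and DESeq2 (1 higher at an unadjusted p under 0.05).

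The part of these shifts in the rises and falls of the nucleolar genes was not tested. In a bulk sample, more cells of a type and more RNA per cell cannot be told apart. Log2 fold changes were above 0 for 24 of the 36 nucleolar genes, against 6721 of all 13052 genes tested. They were below 0 for 27 of 28 cell cycle genes, against 6331 of all genes tested. How the values of both lists relate was not tested.

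**Figure D5:**
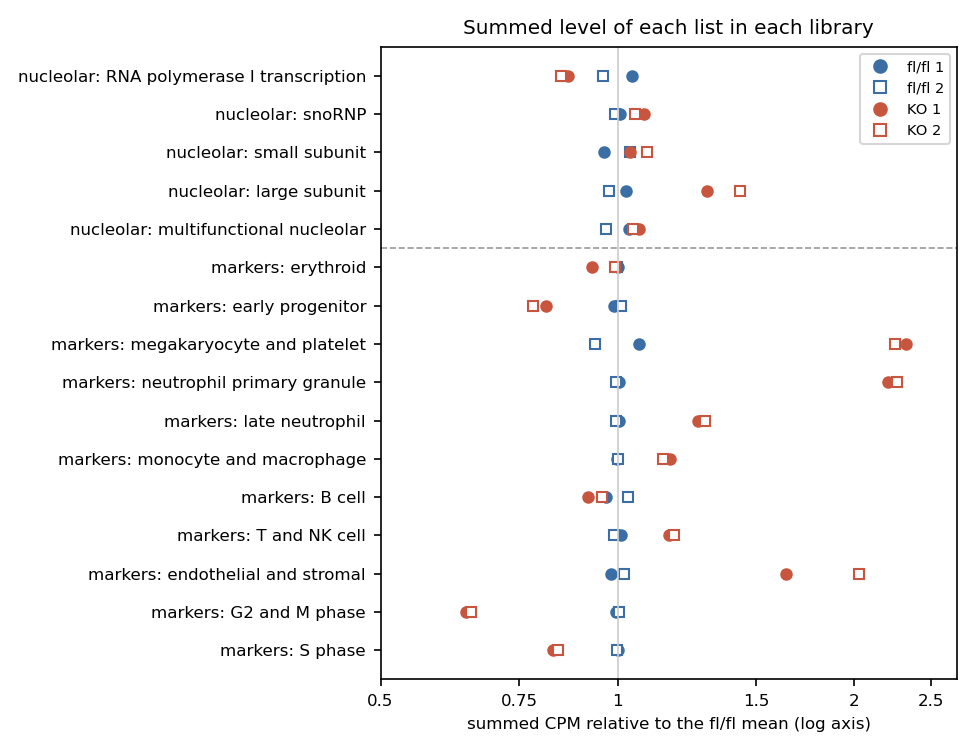
Summed CPM of each gene list in each library, relative to the mean of the fl/fl libraries (log axis), for the nucleolar genes by role (above the dashed line) and for marker lists (below it). The large-subunit nucleolar genes lie right of 1 in both KO libraries and the polymerase I genes left of it, while neutrophil primary granule and platelet markers lie above 2 and G2 and M phase markers below 0.75.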

How the data were processed

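Ter119+ bone marrow cells were profiled in 2 Med16 fl/fl and 2 Med16 KO libraries. The deposited values are whole-number read counts per gene, 1 table per library. Per the submitters' processing notes, build GRCm39 and the programs HISAT2 2.1.0 and HTSeq 0.12.4 were among those used. No source used here names the strand setting or the annotation release. In each table, 5 rows that name no gene entered neither library sizes nor tests. Reads assigned to no feature made up 35.8% to 36.7% of all reads, and reads without a unique alignment 23.6% to 26.4%, so genes with near-identical copies lose reads. One count corresponded to 0.140 to 0.147 CPM.

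edgeR 4.0.16 was run in R 4.3.3 (filterByExpr by genotype, TMM scaling, two-sided quasi-likelihood test on genotype alone, Benjamini-Hochberg adjustment over 13052 genes). The design left 2 residual degrees of freedom, to which the fit added 13.1 prior ones, and the estimated common coefficient of variation was 0.125. An SE is the absolute log2 fold change over the root of F. The 36 genes, the lists and the rule for named genes (all 36, called genes of the other pathway list up to 2 per role and direction, and the most abundant markers) were chosen with earlier results of these data known. Some further markers are named outside that rule. Simulated counts over 12748 genes of this comparison were tested in the same way. Planted changes were found for 17.7% of genes at 1.5-fold, 73.8% at 2-fold and 96.9% at 4-fold, and 5.43% of the 129 calls were false. Every simulated gene had the same coefficient of variation, 0.125, and only 62 to 65 changed genes were tested at each fold. These rates therefore need not hold for the data. Alternatives were DESeq2 1.42.0, 2 other scalings, 2 other filters, the replicate number as a block, offsets for GC content and transcript length, an assumed coefficient of variation of 0.2, and leaving out each library. GC content, length and overlaps came from GENCODE M21 (GRCm38), matched by identifier for 98.4% of the genes tested, and promoters from RefSeq (GRCm38.p6).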

Additional observations from a re-analysis of the deposited data

How the results depend on the processing

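Med16 and the 9 called nucleolar genes kept their direction under all 13 alternatives. The 7 higher and 2 lower nucleolar genes were the same genes with DESeq2, DESeq2 size factors, both other filters and the length offset. With an assumed coefficient of variation of 0.2, 331 genes were higher and 289 lower over all genes, 1 and 0 among the 36, and 0 and 1 among the other pathway genes. Those other genes had 12 higher when scaled by library size alone, and 0 higher and 1 lower with the GC content offset. The median of the 36 genes was 0.276 when scaled by library size alone, 0.197 with no filter and 0.288 with the GC content offset. The median of the other pathway genes was 0.168, 0.089 and 0.174 under those settings, 0.1 with DESeq2 and 0.096 with the length offset. Scaling by library size alone gave 1365 higher and 1055 lower genes in place of 1109 and 1291, and moved the median of all genes from 0.02 to 0.07.

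Leaving out 1 library gave 454 to 1839 genes higher and 704 to 2172 lower over all genes, 2 to 12 and 1 to 3 among the 36, and 0 to 14 and 1 to 8 among the other pathway genes. The medians ranged from 0.118 to 0.237 for the 36 genes and from 0.073 to 0.116 for the others.

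The replicate numbers are not stated to pair libraries, and deviations of same-numbered libraries had r = -0.01 over 13052 genes. With the number as a replicate block, 9 nucleolar genes were higher (25.0%, against 9.71% of all genes tested), the same 7 with Utp14a and Pes1. Ubtf and Dkc1 were again the 2 called lower (5.56%, against 11.5%), and 8 other pathway genes were higher and 3 lower. The cause of these differences was not tested. Rrp9 and Nop16 had the lowest mean levels of the 36, 10.1 and 9.95 CPM, with SEs of 0.31 and 0.34.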
